A study of Homo sapiens with 6 samples.

Results

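ETS factors are transcription factors that share a DNA-binding domain, the ETS domain, which recognises a GGAA core. The 10 genes of that family described here were taken as every probeset annotated to FLI1, ERG, ETS1, ETS2, ETV1, ETV4, ETV5, ELK1, ELF1 or GABPA, which gave 11 probesets out of 32321 on the array and 10 genes out of 18404. The family was chosen because FLI1 was higher in the line that expresses TRIM71, so the FLI1 values are a description with no test, and the list was drawn up with the results of the same arrays known. For the other 9 genes the adjusted p from the fit over all probesets describes these arrays and is not independent support. Of the 10 genes, 1 had a parental mean below the lower quartile of the probesets, and no filter on dim values was applied.

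The 2 groups were 3 arrays of HEK293 Flp-In cells that constitutively express TRIM71 with a FLAG-HA tag and 3 of the parental cells, wild-type in the labels. HEK293 cells derive from human embryonic kidney, and the Flp-In version carries a recombination site that takes up 1 transgene. Cells of both groups grew in DMEM with glutamine and fetal calf serum, and hygromycin B at 50 ug/ml is named for the TRIM71-expressing cells alone, so transgene and drug cannot be told apart. The promoter of the transgene, and whether the line is a single clone, are not given in the sources used here; the labels say only that there were triplicates, so the p-values measure a spread that may be technical. TRIM71, an RNA-binding protein of stem and progenitor cells, stood at 10.63, 10.86 and 10.72 in the TRIM71 line, against 7.23, 7.54 and 7.44 in the parental line (log2 difference 3.33, two-sided exact permutation p = 0.1, the smallest that 3 against 3 arrays allow).

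ETS factors act in subfamilies with different partners and tissues. FLI1 and ERG are known from endothelial and blood cells, ETS1 and ETS2 from lymphoid, vascular and growth factor responses, and ETV1, ETV4 and ETV5, the PEA3 group, as nuclear effectors of fibroblast growth factor and MAP kinase signalling. ELK1 binds with serum response factor at immediate early genes, ELF1 is a broadly expressed activator, and GABPA is the DNA-binding subunit of GABP, which serves many housekeeping and mitochondrial genes.

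All levels are log2 expression on the authors' RMA scale, and a difference is the TRIM71 line minus the parental line on that scale. FLI1 was at 7.89, 8.06 and 7.91 in the TRIM71 line, against 6.52, 6.42 and 6.51 in the parental line. The lowest TRIM71 array lay more than 1 log2 unit above the highest parental array, and the arrays of each line lay close together. The means were 7.95 ± 0.10 and 6.48 ± 0.05 (SD, n = 3 each), a log2 difference of 1.47 or 2.77-fold. FLI1 was number 15 of 18404 genes when ordered from the largest rise, and 0.261% of all genes had a mean at least 2-fold higher in the TRIM71 line. ERG, the closest relative of FLI1, gave 4.64, 4.58 and 4.65 in the TRIM71 line and 4.56, 4.47 and 4.75 in the parental line. Its groups overlapped on a dim probeset, below the lower quartile of all values at 5.02, and the log2 difference was 0.03 (95% interval −0.16 to 0.22, limma adjusted p = 0.86).

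ETS1 lies next to FLI1 among the measured genes of chromosome 11. It was at 8.10, 8.23 and 8.19 in the TRIM71 line, against 7.50, 7.39 and 7.41 in the parental line. The groups did not overlap, and ETS1 rose by 0.74 on the log2 scale, or 1.67-fold (SE 0.06, limma adjusted p = 8.7e-04). That call held whichever array was left out (adjusted p 0.0041 to 0.0074). ETS2, its relative on chromosome 21, stood at 8.91, 9.07 and 9.06 in the TRIM71 line and 9.18, 9.17 and 9.15 in the parental line. The 3 TRIM71 arrays were all below the parental arrays, but the difference of −0.15 did not pass (95% interval −0.29 to −0.01, limma adjusted p = 0.14).

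The PEA3 group was lower throughout. ETV1 read 6.64, 6.84 and 6.70 in the TRIM71 line, against 8.14, 7.46 and 7.99 in the parental line. ETV1 fell 2.19-fold (log2 difference −1.13, SE 0.18, limma adjusted p = 0.0081), and the call held with any 1 array left out (adjusted p 0.0031 to 0.038). Over all genes 0.837% had a mean at least 2-fold lower. ETV5 read 5.62, 5.74 and 5.51 in the TRIM71 line, against 6.91, 6.17 and 6.71 in the parental line. It fell 1.96-fold (log2 difference −0.97, SE 0.19, limma adjusted p = 0.017), and the call did not hold without TRIM71 replicate 1 (adjusted p = 0.061) or without parental replicate 3 (adjusted p = 0.058). ETV4 read 6.50, 6.76 and 6.88 in the TRIM71 line, against 7.23, 6.99 and 7.22 in the parental line, with a log2 difference of −0.43 (SE 0.11) that passed narrowly (limma adjusted p = 0.049). It missed the threshold when TRIM71 replicate 1 (adjusted p = 0.107), TRIM71 replicate 2 (0.107), or parental replicate 1 (0.125), 2 (0.059) or 3 (0.135) was left out, and also with quantile normalization (0.057), median centring (0.052) or array weights (0.052). For all 3 genes the groups did not overlap, and parental replicate 2 was the lowest parental array, with a parental SD of 0.36 for ETV1 and 0.38 for ETV5 against 0.05 for FLI1.

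**Figure D1:**
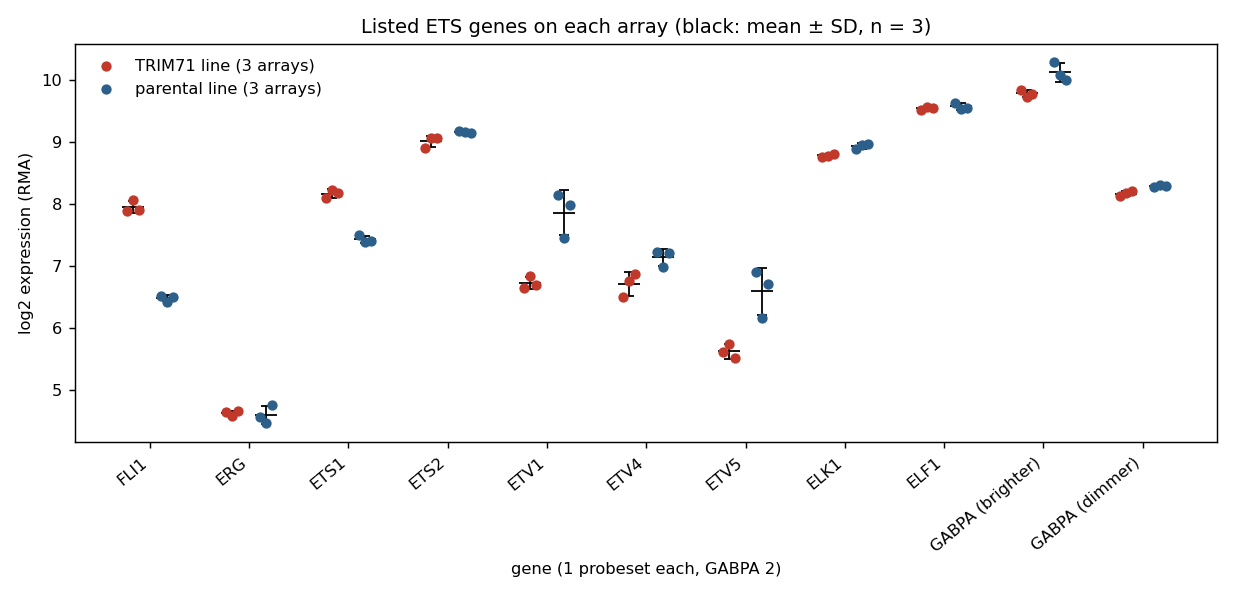
Log2 expression of the 11 probesets of the listed ETS genes on each array (points; y axis), with the mean and SD of each line in black (n = 3), TRIM71 line in red and parental line in blue. FLI1 and ETS1 sit higher in the TRIM71 line, ETV1, ETV4 and ETV5 lower, and the parental arrays of ETV1 and ETV5 are the most spread.

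ELK1, ELF1 and GABPA are broadly expressed factors. ELK1 was at 8.77, 8.78 and 8.82 in the TRIM71 line and 8.89, 8.95 and 8.98 in the parental line, a difference of −0.15 that did not pass (95% interval −0.27 to −0.03, limma adjusted p = 0.088). ELF1 was at 9.52, 9.57 and 9.56 in the TRIM71 line and 9.64, 9.54 and 9.56 in the parental line, with overlapping groups and a difference of −0.03 (95% interval −0.15 to 0.09, limma adjusted p = 0.77). GABPA had 2 probesets with different calls. The brighter gave 9.85, 9.73 and 9.79 in the TRIM71 line and 10.30, 10.08 and 10.01 in the parental line (log2 difference −0.34, limma adjusted p = 0.039), and the dimmer gave 8.14, 8.18 and 8.21 in the TRIM71 line and 8.29, 8.31 and 8.29 in the parental line (−0.12, adjusted p = 0.12). TRIM71 arrays were below parental arrays on both. RefSeq lists a GABPA pseudogene, GABPAP, on chromosome 7, so which transcripts each probeset reads is uncertain. In the order of probeset numbers the brighter falls between TFB1M on chromosome 6 and COL1A2 on chromosome 7. The dimmer falls near ETS2 on chromosome 21. The brighter may therefore read the pseudogene, which was not tested. The brighter missed the threshold when TRIM71 replicate 1 (adjusted p = 0.083), 2 (0.119) or 3 (0.090), or parental replicate 1 (0.053) or 2 (0.089), was left out. It also missed the threshold with median centring (0.059).

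FLI1 apart, and with the brightest probeset standing for a gene, 1 of the other 9 genes was called higher (ETS1). Another 4 were called lower (ETV1, ETV4, ETV5 and GABPA) and 4 in neither direction (ERG, ETS2, ELK1 and ELF1). GABPA was called on its brighter probeset alone, which may read the pseudogene. Over all genes 10.0% were called higher and 12.2% lower, and since the list was chosen on the same contrast nothing is read from the members' counts. Among the 9, the groups did not overlap for 1 gene above and 6 below, beside 20.2% above and 23.4% below, or 43.6% in either direction, of all genes. The median log2 difference of the 10 genes, FLI1 included, was −0.15, beside −0.01 over all 18404 genes. With 1 array left out, the number called lower was between 1 and 3. It was 2 without any 1 of parental replicates 1, 2 and 3 or without TRIM71 replicate 2, and 1 without TRIM71 replicate 1.

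**Figure D2:**
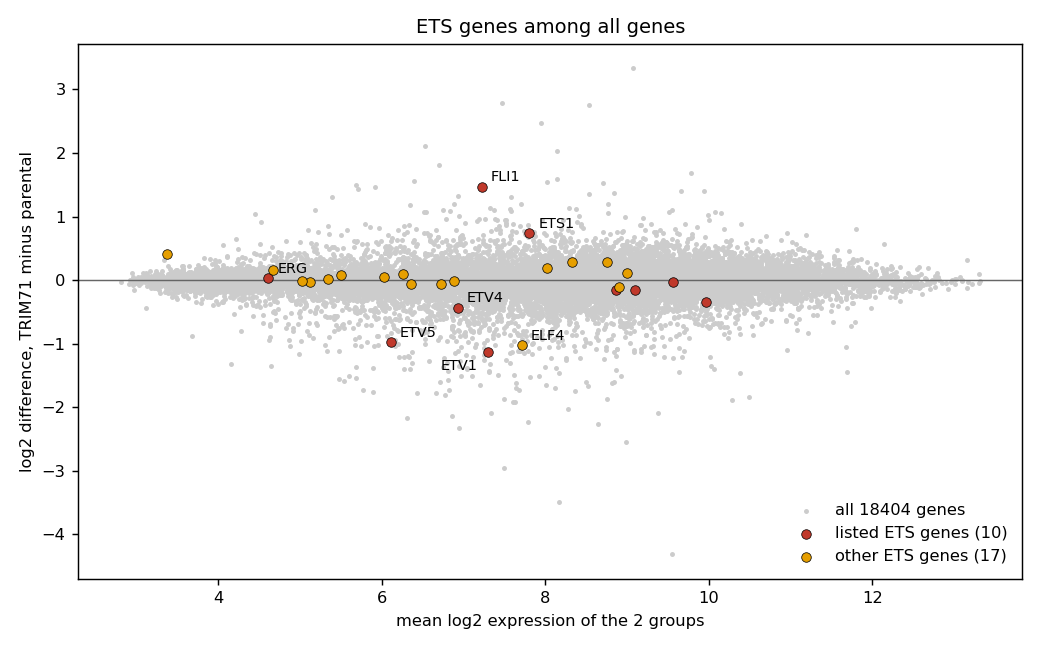
Log2 difference, TRIM71 line minus parental line (y axis), against the mean log2 expression of the 2 groups (x axis) for 18404 genes in grey, the 10 listed ETS genes in red and 17 other ETS genes in orange. FLI1 at 1.47 and ETV1 at −1.13 lie toward the edges of the cloud, and most ETS genes lie near 0.

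The human ETS family as listed here has 28 genes, of which 27 had a probeset with 1 gene symbol; ETV6 shared its probeset with another symbol and was not used. Of the 17 measured genes outside the list, 2 rose, 1 fell and 14 did not pass, beside 10.0% higher and 12.2% lower over all genes. ELF4, an ELF1 relative known from lymphocytes, was at 7.12, 7.25 and 7.24 in the TRIM71 line, against 8.22, 8.26 and 8.19 in the parental line. It fell 2.03-fold (log2 difference −1.02, SE 0.06, limma adjusted p = 2.7e-04), with the call kept whichever array was left out (adjusted p 0.0019 to 0.0031). The 95% interval was −1.16 to −0.89 for ELF4 and, as above, −0.15 to 0.09 for its relative ELF1, and the difference between the genes was not tested.

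The ternary complex factors ELK3 and ELK4, relatives of ELK1 that also bind with serum response factor, were higher. ELK4 was at 8.47, 8.43 and 8.50 in the TRIM71 line, against 8.21, 8.12 and 8.21 in the parental line (log2 difference 0.29, limma adjusted p = 0.012). ELK3 was at 8.80, 9.01 and 8.88 in the TRIM71 line, against 8.62, 8.56 and 8.64 in the parental line (0.29, limma adjusted p = 0.031). The groups of neither gene overlapped. The ELK4 call ended without parental replicate 2 (adjusted p = 0.051). ELK3 passed in 1 of 6 fits with an array left out, the fit without TRIM71 replicate 1, with adjusted p between 0.040 and 0.105 over the 6, so the count that rose was 1 or 0 in 5 of the 6 fits and 0 without parental replicate 2. ERF, a repressor of the family, differed by 0.20 (limma adjusted p = 0.051), ETV3 by −0.11, ELF2 by 0.11 and the very dim SPIC by 0.41, and none of the 4 passed.

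The other 10 family genes are mostly known from specialised tissues. SPI1 and SPIB, factors of myeloid and B cells, differed by −0.07 and 0.05. The epithelial factors ELF3, ELF5, EHF and SPDEF differed by 0.09, −0.02, 0.17 and 0.10, FEV of serotonin neurons by −0.01, ETV2 of early vessels by −0.06, and ETV7 and ETV3L by −0.01 and 0.01. Adjusted p for these 10 was between 0.21 and 0.98. The median difference of the 17 genes was 0.05.

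**Figure D3:**
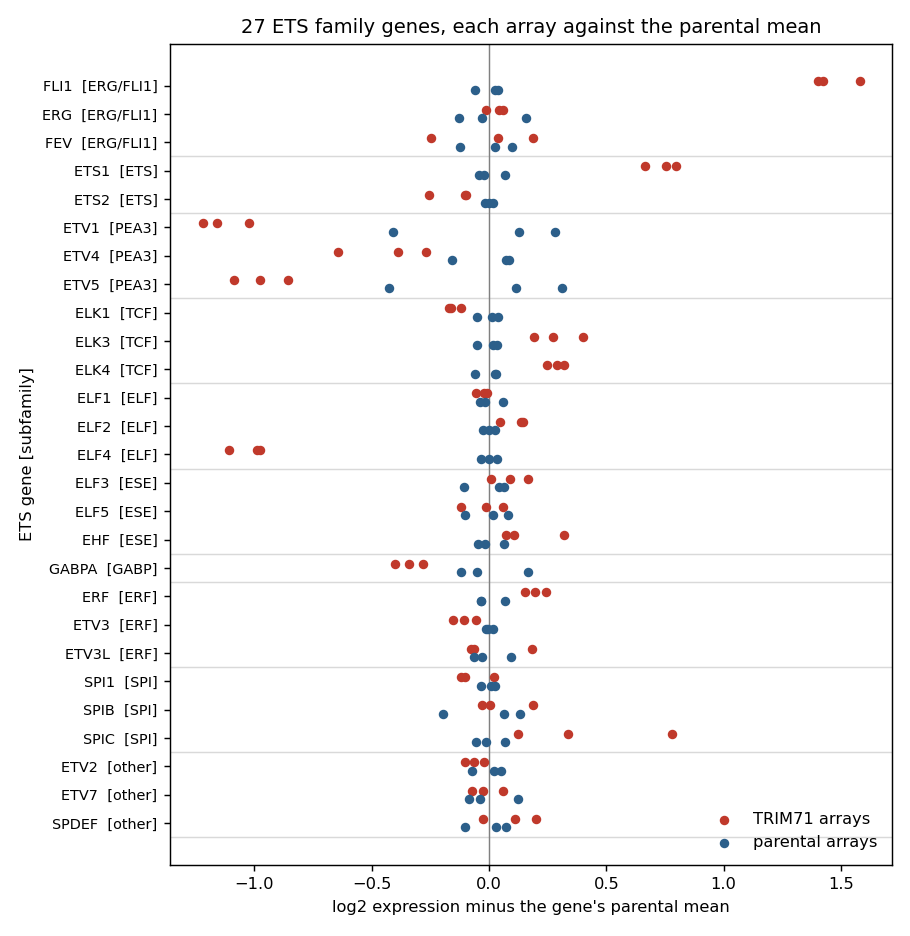
Log2 expression of 27 ETS family genes on each TRIM71 array (red) and each parental array (blue), minus the gene's parental mean (x axis), with subfamilies in brackets. For 8 genes all red points lie right of the blue ones (FLI1, ETS1, ELK3, ELK4, ELF2, EHF, ERF and SPIC), for 8 left of them (ETV1, ETV4, ETV5, ELF4, ETS2, ELK1, GABPA and ETV3), and for 11 they overlap. Over all genes the TRIM71 arrays lay above for 20.2% and below for 23.4%, or 43.6% in either direction. The counts include FLI1 and the genes listed with it, so nothing is read from them.

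Promoter windows, from 250 bases before to 50 after a RefSeq gene start (GRCh38.p14), were found for 6 of the 10 genes (ERG, ETS2, ETV1, ELK1, ELF1 and GABPA), in 17 windows, and for 16 of the other ETS genes, in 23 windows. Because ETS factors can bind the promoters of family genes, 3 windows are shown. They are from ETS genes called in the fit that hold CCGGAA, an ETS core with its preferred flank. GABPA was called on its brighter probeset alone, which may read the pseudogene. Both strands were searched, TTCCGG being the same motif on the other strand, and every match overlaps the shorter GGAA. Capitals mark the matches.
ETV1, chr7:13991376-13991675, minus strand: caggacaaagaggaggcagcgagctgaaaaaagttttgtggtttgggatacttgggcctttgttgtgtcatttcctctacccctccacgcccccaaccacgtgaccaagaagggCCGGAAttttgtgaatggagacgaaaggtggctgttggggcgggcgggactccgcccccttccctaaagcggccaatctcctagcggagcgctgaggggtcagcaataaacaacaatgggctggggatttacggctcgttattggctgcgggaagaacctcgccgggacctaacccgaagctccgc
GABPA, chr21:25734722-25735021, plus strand: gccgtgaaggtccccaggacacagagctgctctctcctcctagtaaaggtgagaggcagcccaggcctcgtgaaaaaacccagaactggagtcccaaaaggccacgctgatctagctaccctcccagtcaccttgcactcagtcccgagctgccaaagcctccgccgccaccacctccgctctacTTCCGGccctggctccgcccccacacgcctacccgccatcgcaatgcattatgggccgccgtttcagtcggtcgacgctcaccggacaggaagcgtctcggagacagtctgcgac
ELK4, chr1:205631962-205632261, minus strand: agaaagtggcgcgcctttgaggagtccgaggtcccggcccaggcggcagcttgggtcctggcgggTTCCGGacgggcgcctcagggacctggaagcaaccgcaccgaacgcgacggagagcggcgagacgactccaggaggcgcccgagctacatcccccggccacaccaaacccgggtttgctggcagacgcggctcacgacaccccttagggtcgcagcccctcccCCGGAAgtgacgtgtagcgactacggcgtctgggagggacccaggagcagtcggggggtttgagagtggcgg

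The match in the ETV1 window starts at base −136 counted from the gene start, that of GABPA at −65, and those of ELK4 at −185 and −22. Of the 6 ETV1 windows 3 held the motif, with 1 match shared by an overlapping pair. GABPA had it in its only window, and ERG, ETS2, ELK1 and ELF1 in none. Among the 16 other genes, ELK4, ETV2 and ETV3L held it. Over all 35116 windows 17.2% held CCGGAA and 95.5% held GGAA, and of the 27305 genes with windows 20.1% held CCGGAA in at least 1. The genes with a match include ETV1, which fell, ELK4, which rose, and ETV2, which was not called.

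Gene order on the chromosome was compared because FLI1 and ETS1 are neighbours among the measured genes, as are ERG and ETS2 apart from a non-coding gene. Of the 10 measured genes nearest to the first pair, 5 on each side, 0 rose, 1 fell and 9 did not pass, with log2 differences between −0.42 and 0.15. Over all genes 10.0% were called higher and 12.2% lower, so such counts among 10 genes are near the background. ST3GAL4, a sialyltransferase, was the one that fell (6.49 ± 0.01 in the TRIM71 line and 6.91 ± 0.07 in the parental line, limma adjusted p = 0.0040). KCNJ1, a potassium channel gene on the FLI1 side, was at 4.03 ± 0.10 and 4.12 ± 0.09, and KIRREL3-AS3, the nearest measured gene on the ETS1 side, at 6.30 ± 0.01 and 6.15 ± 0.02 (adjusted p = 0.061), in the TRIM71 and the parental line.

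Around ERG and ETS2, 11 genes were measured, 0 rose, 2 fell and 9 did not pass, with differences between −0.27 and 0.15. Among 11 genes such counts are near the background of 10.0% called higher and 12.2% lower. The chromatin protein HMGN1 fell by 0.25 (limma adjusted p = 0.012) and BRWD1 by 0.27 on the log2 scale (adjusted p = 0.031). BRWD1 passed in 2 of 6 fits with an array left out (adjusted p 0.045 to 0.105), those without parental replicate 1 and without TRIM71 replicate 1. With the replicate block neither gene passed (limma adjusted p = 0.055 for HMGN1 and 0.090 for BRWD1). The probesets of HMGN1 and BRWD1 are numbered apart from those of the other genes around ERG and ETS2. Which locus they read is therefore uncertain. ETS2-AS1, the transcript antisense by name to ETS2, differed by −0.18 without passing (adjusted p = 0.15).

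**Figure D4:**
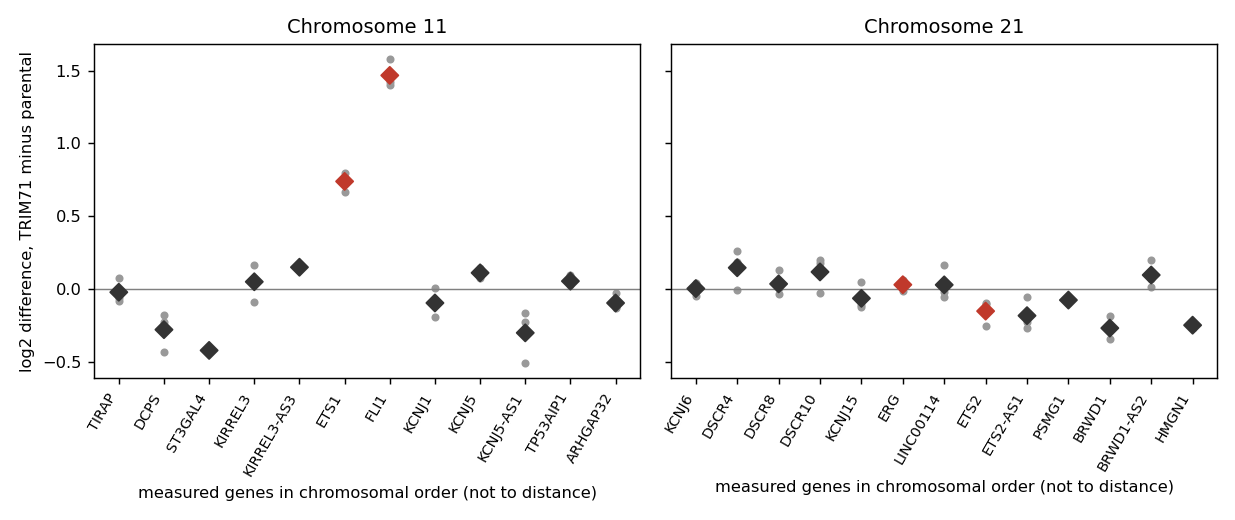
Log2 difference, TRIM71 line minus parental line (y axis), for measured genes in chromosomal order around FLI1 and ETS1 (left) and ERG and ETS2 (right), with the mean as a diamond (red for ETS genes, black for others) and each TRIM71 array minus the parental mean as a grey point. FLI1 and ETS1 stand at 1.47 and 0.74, and their 10 neighbours between −0.42 and 0.15.

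Genes whose pattern over the 6 arrays was closest to that of FLI1 were found by the root mean square difference after each gene was centred on its parental mean. They were LRP2, an endocytic receptor (0.068), the secreted kinase PKDCC (0.073), the nuclear receptor NR6A1 (0.078), the lysophosphatidic acid receptor LPAR6 (0.101), ADAMTS9, a metalloprotease (0.105), and the sulfotransferase SULT1C4 (0.113). Their log2 differences ran from 1.37 for NR6A1 to 1.60 for ADAMTS9. By Pearson correlation, which ignores the size of a change, ATP8B2, IDH1, BMP2, C2orf69, DNAJB1 and AGFG1 came first, at 0.9998 for ATP8B2 and 0.9991 for AGFG1, with differences from 0.45 for AGFG1 to 1.01 for BMP2. The 2 measures share no gene among these, and each rests on 6 arrays in 2 groups. Every gene named had its TRIM71 arrays above its parental arrays, which follows from the choice by likeness to FLI1 and is no separate result. Within the family ETS1 was closest to FLI1, at a root mean square difference of 0.517.

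FLI1 and ERG are known to act on endothelial and megakaryocyte genes, which also mark those cells. Of 18 such genes 17 were measured, 2 rose, 0 fell and 15 did not pass, with a median difference of −0.03. As 10.0% of all genes were called higher and 12.2% lower, 2 called higher among 17 is near the background. KDR, a receptor for vascular endothelial growth factor, was at 6.09, 6.74 and 6.45 in the TRIM71 line, against 5.15, 4.92 and 4.90 in the parental line. It rose 2.71-fold (log2 difference 1.44, SE 0.17, limma adjusted p = 0.0031), beside a dim parental mean of 4.99, below the lower quartile of 5.02, where log2 values understate a change. FLT1, the other receptor of that growth factor on the list, was at 8.16, 8.31 and 8.19 in the TRIM71 line, against 7.59, 7.50 and 7.51 in the parental line. It rose 1.61-fold (0.69, SE 0.06, limma adjusted p = 0.0011). Both calls held with any 1 array left out.

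None of the other 15 passed. EGFL7, a secreted vessel protein, differed by −0.32 (adjusted p = 0.056), and the rest by between −0.16 and 0.11. The absence of a fall depended on the setting: 1 gene of the list was called lower under 9 of 11 alternative settings, EGFL7 with median centring (adjusted p = 0.047), and EGFL7 passed in 1 of 6 fits with an array left out, that without TRIM71 replicate 3 (adjusted p = 0.020). The defining endothelial genes PECAM1, at 4.40 ± 0.06 and 4.40 ± 0.10 in the TRIM71 and the parental line, CDH5, at 5.38 ± 0.15 and 5.47 ± 0.09, and VWF, at 5.11 ± 0.02 and 5.11 ± 0.10, had overlapping groups. The mean log2 level of the 17 genes was between 6.025 and 6.157 on the TRIM71 arrays and between 5.946 and 6.023 on the parental arrays. These ranges nearly met, and the mean includes KDR at a difference of 1.44 and FLT1 at 0.69. The median difference of the 17 was −0.03, so the means do not show a rise of the list as a whole. Of 5 measured leukocyte markers 0 rose and 0 fell, where 10.0% of all genes were called higher and 12.2% lower. PTPRC was at 3.50 ± 0.00 and 3.53 ± 0.16 in the TRIM71 and the parental line. The summed linear level of the 5 was 172.1 to 186.9 in the TRIM71 line and 170.6 to 185.6 in the parental line. Of 6 genes known from HEK293, in the TRIM71 and the parental line, KRT18 was at 10.20 and 10.25, KRT8 at 11.17 and 11.39, VIM at 11.51 and 11.11, NEFL at 10.96 and 12.41, PAX2 at 7.36 and 7.15 and NEFM at 6.26 and 6.54, the last below the array medians. VIM was called higher (limma adjusted p = 0.0028), and NEFL (9.5e-05) and KRT8 (0.038) lower, KRT8 in none of the 6 fits with an array left out (adjusted p 0.064 to 0.124). In such bulk samples fewer cells with a transcript and less transcript per cell cannot be told apart.

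MAP kinase and FGF feedback genes, which go with ETV1, ETV4 and ETV5, numbered 11, of which 2 rose, 2 fell and 7 did not pass, where 10.0% of all genes were called higher and 12.2% lower. The number that rose was 0 at an adjusted p under 0.01 and 4 with only probesets above the median kept. DUSP4, a MAP kinase phosphatase, was at 5.96, 6.07 and 6.16 in the TRIM71 line, against 7.11, 6.95 and 6.93 in the parental line. It fell 1.91-fold (log2 difference −0.93, limma adjusted p = 9.8e-04). The cell cycle regulator CCND1 fell by 0.28 (adjusted p = 0.012; 0.051 without TRIM71 replicate 1). SPRY2, an inhibitor of receptor signalling, rose by 0.31 (adjusted p = 0.010), and its relative SPRED1 by 0.23 (adjusted p = 0.038), the second in 1 of 6 fits with an array left out, that without parental replicate 3 (adjusted p 0.035 to 0.126 over the 6). DUSP6, a phosphatase that ERK signalling induces, differed by 0.33 without passing (adjusted p = 0.11). Of 6 measured kinases and ligase subunits that act on ETS factors, MAP2K1, the kinase above ERK, rose by 0.34 (10.45 ± 0.05 and 10.12 ± 0.04 in the TRIM71 and the parental line, adjusted p = 0.0073), 0 fell and 5 did not pass.

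Of 16 partners and coactivators 2 rose, 2 fell and 12 did not pass. With 22.2% of all genes called in either direction, these counts are near the background. GABPB2, an activating subunit that pairs with GABPA, was at 7.27, 7.39 and 7.22 in the TRIM71 line, against 8.16, 8.33 and 8.28 in the parental line. It fell 1.95-fold (log2 difference −0.96, SE 0.07, limma adjusted p = 6.7e-04). The alternative subunit GABPB1 was at 9.20 ± 0.03 and 9.14 ± 0.04 in the TRIM71 and the parental line (0.06, 95% interval −0.06 to 0.17). CBFB, which binds RUNX1, a partner of ETS1, fell by 0.37 (adjusted p = 0.0033), while RUNX1 itself differed by −0.02. The acetyltransferases EP300 and CREBBP rose by 0.40 (adjusted p = 0.0037) and 0.26 (adjusted p = 0.015), and the CREBBP call ended without parental replicate 2, TRIM71 replicate 1 or TRIM71 replicate 2 (adjusted p up to 0.061). SRF, the partner of the ELK factors, differed by 0.02.

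Genes that ELK factors, GABP and other ETS factors are known to act on are given beside all genes, of which 22.2% were called in either direction. The lists are too small to compare with that share, and no test over them was run. Of 7 measured SRF and ELK targets, MCL1, a survival factor, rose by 0.34 (limma adjusted p = 0.0059) and EGR3 fell by 0.24 (adjusted p = 0.031; it passed in 1 of 6 fits with an array left out, that without TRIM71 replicate 2, at 0.038 to 0.106). FOS and EGR1 differed by −0.05 and −0.02. Of 8 GABP targets, TFB2M, a mitochondrial transcription factor, rose by 0.29 (adjusted p = 0.048) and RB1 fell by 0.29 (adjusted p = 0.039). TFB2M passed in 1 of 6 fits with an array left out, that without parental replicate 3 (0.040 to 0.142), and RB1 in none (0.058 to 0.103).

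Of 10 measured matrix and protease genes 3 rose and 0 fell, where 10.0% of all genes were called higher and 12.2% lower. The number that rose was 1 to 5 over the alternative settings, and 1 or 2 with an array left out. All TRIM71 arrays lay above the parental arrays for 5 of the 10, and below for 2, COL1A1 among them. Over all genes these shares were 20.2% and 23.4%. TNC, a matrix glycoprotein, rose by 0.42 (7.67 ± 0.06 and 7.24 ± 0.04 in the TRIM71 and the parental line, limma adjusted p = 0.0041). The urokinase gene PLAU and the protease inhibitor TIMP1 rose by 0.28 each (adjusted p = 0.023 and 0.021). PLAU passed in 2 of 6 fits with an array left out, those without parental replicate 2 and without TRIM71 replicate 1, and TIMP1 in 1, that without parental replicate 1, with adjusted p up to 0.076 for PLAU and up to 0.074 for TIMP1. The collagen genes COL1A1 and COL1A2, which FLI1 is known to repress in fibroblasts, differed by −0.19 and −0.02 without passing. Median differences were 0.08 for the feedback genes, 0.06 for the upstream kinases and ligase subunits, −0.03 for the partners, 0.02 for the SRF and ELK targets, −0.08 for the GABP targets and 0.11 for the matrix genes, beside −0.01 over all genes.

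**Figure D5:**
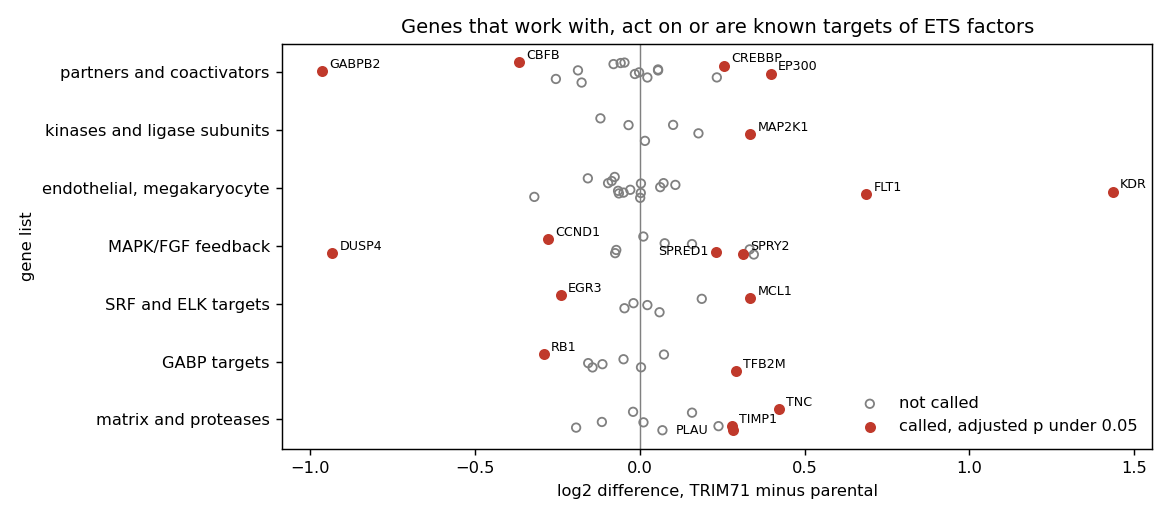
Log2 difference, TRIM71 line minus parental line (x axis), for genes of 7 lists tied to ETS factors (rows, with vertical scatter for legibility), filled and named where called at a limma adjusted p under 0.05. KDR at 1.44, GABPB2 at −0.96 and DUSP4 at −0.93 lie farthest from 0.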

How the data were processed

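RNA of 3 TRIM71 and 3 parental arrays was compared. The authors deposited log2 expression values, 1 column per array, made with RMA, and name affy as well, per the submitters' processing notes. RMA makes the probe distributions of arrays equal, so a change in total mRNA per cell cannot be seen. Versions and build are not given in the sources used here. Of 32321 probesets, 19158 had 1 symbol in the platform annotation, 1388 several and 11775 none, and only the first kind was named; 19128 matched RefSeq GRCh38.p14 by gene ID. The brightest probeset by mean over all arrays stood for a gene.

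All probesets were fitted with limma 3.58.1 in R 4.3.3 (lmFit, eBayes, group as the term, no filter), with Benjamini-Hochberg adjustment over all of them and calls at an adjusted p under 0.05. The fit was tested on simulated data. Array medians were between 6.90 and 6.97, and 3 arrays per group limit the precision. The genes named were TRIM71, all ETS genes, up to 4 called genes per further list, the 5 nearest genes on each side, and 6 genes most like FLI1 by each of 2 measures, besides other list members named to describe a list. Members and lists were chosen with earlier results of these data known. Alternatives were other priors, normalizations, filters, probeset rules, weights, thresholds, a replicate block and each array left out.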

Additional observations from a re-analysis of the deposited data

How the results depend on the processing

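The log2 difference of FLI1 was 1.46 to 1.48 over 11 alternative settings and 1.41 to 1.50 with 1 array left out, that of TRIM71 3.28 to 3.33 and 3.25 to 3.40. No difference of a called ETS gene on the list changed sign. Calls of ETS1 and ETV1 held under every alternative and array left out. The numbers of probesets higher and lower moved to 1512 and 1615 with the replicate block and to 973 and 1273 at an adjusted p under 0.01, and those of genes to 1019 and 1371 and to 792 and 1106. With 1 array left out they were 1320 to 2077 probesets higher and 1566 to 2026 lower, or 979 to 1485 genes higher and 1336 to 1709 lower. The number of listed ETS genes called lower was 2 with median centring, 1 with the replicate block and 1 at an adjusted p under 0.01, and 1 to 3 with 1 array left out. ETV4 and GABPA lost their calls with median centring (adjusted p = 0.0518 and 0.0591), ETV4, ETV5 and GABPA with the replicate block (0.0901, 0.0501 and 0.0506) and at the stricter threshold, and ETV4 with quantile normalization (0.057) and array weights (0.0518). The number of other ETS genes called higher was 1 with median centring, 1 with the replicate block and 0 at an adjusted p under 0.01, and 0 to 2 with 1 array left out; fewer samples or a stricter threshold is how the last settings are built, and otherwise the cause was not tested. Replicate numbers gave no sign of pairing (correlation of same-number deviations 0.07, −0.19 and 0.11, with 1 of 3 TRIM71 arrays closest to its own number). With 3 arrays per group this cannot exclude a pairing, and the labels name none. ELK1 passed with the filter at the median (adjusted p = 0.029), with 1 probeset per gene (0.045) and with the mean of probesets (0.046). With the replicate block 0 feedback genes rose and EGFL7 passed (0.0475). ETV4 and ETV5 have no value with the filter at the median, nor ERG with either filter. Probeset counts have no value where genes stand for probesets, and neither has the dimmer GABPA probeset with 1 probeset per gene or either GABPA probeset with the mean of probesets. ERG is near the dim end, where log2 values understate a change.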
